A study of Homo sapiens with 6 samples.

Results

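The genes described here are 10 amino acid transporters of the solute carrier (SLC) families: SLC1A3, SLC1A4, SLC1A5, SLC6A9, SLC7A1, SLC7A5, SLC36A1, SLC38A1, SLC38A2 and SLC43A1. They were taken by symbol from a list that was chosen with earlier results of these data known. All 10 were found among the 33514 gene symbols of the count tables, and all 10 passed the filter on low counts that left 16209 genes for testing. RNA was sequenced in bulk from PC3, a human prostate cancer line established from a bone metastasis. The cells were grown in RPMI medium with 10% serum and antibiotics. They were left untreated (control), or 50 µM heme was in the medium for 2 h or for 4 h, with 2 libraries in each of the 3 groups. No vehicle treatment or separate control for each time is described in the labels, so both heme times were compared with the same untreated libraries. The labels do not say whether the 2 libraries of a group came from separate cultures, and p-values therefore measure a spread that may be only technical.

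Amino acid transporters move amino acids across the plasma membrane or out of lysosomes. Some exchange 1 amino acid for another, others pull their cargo in with sodium or protons. Cells that lack amino acids, or whose stress kinases phosphorylate the translation factor eIF2alpha, make more of the transcription factor ATF4, and several transporter genes carry sites for ATF4 and its C/EBP partners, known as CARE sites. One of these kinases, HRI, is held in check by heme. Growing cancer cells rely on several of these carriers, and MYC, the factor named in the title of the series, is known to raise glutamine and leucine uptake genes through E-box sequences. Glycine, the cargo of SLC6A9, is also a building block of heme.

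The letters around the promoter starts are shown first, because the members did not move alike and these stretches let a reader see what the start regions hold. RefSeq promoter windows on GRCh38.p14 (from 250 bases before to 50 bases after a start) were found for 10 of 10 members, 18 windows in all, since several genes have more than 1 start. The CARE core was searched as TGATGNAA on both strands. It occurred in 5 of the 18 windows, 1 each in SLC1A3, SLC1A4, SLC1A5, SLC7A1 and SLC38A1, and in 3.62% of 35116 windows of the same length over all genes. Below are 30 bases around each match, 5′ to 3′ on the strand of the gene, with the match in capitals (in SLC1A4 the match is on the opposite strand).
SLC1A4: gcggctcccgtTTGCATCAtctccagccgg
SLC7A1: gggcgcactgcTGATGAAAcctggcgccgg
SLC38A1: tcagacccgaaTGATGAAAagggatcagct
SLC1A5: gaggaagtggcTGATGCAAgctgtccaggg
SLC1A3: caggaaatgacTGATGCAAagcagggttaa
They lie at chr2:64989381-64989410 (plus strand), chr13:29595663-29595692 (minus), chr12:46266502-46266531 (minus), chr19:46784893-46784922 (minus) and chr5:36596357-36596386 (plus). Relative to the start of its own window, the first base of the match was at -7 in SLC1A4, 7 in SLC7A1, -4 in SLC38A1, -97 in SLC1A5 and -220 in SLC1A3. The windows of SLC1A3, SLC1A4, SLC1A5 and SLC38A1 are 1 of several for the gene, and gene-level counts do not show which start the cells used.

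The E-box CACGTG, which reads the same on both strands, occurred in 4 of the 18 windows and in 7.26% of all windows. The members holding it were SLC1A5, SLC7A5, SLC36A1, whose window has a pair of them, and SLC43A1, as shown here in the same format.
SLC7A5: ggccggacgacgCACGTGctccgagctggg
SLC1A5: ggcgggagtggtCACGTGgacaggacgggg
SLC43A1: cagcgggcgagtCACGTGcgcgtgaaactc
SLC36A1, upstream site: cgctcaagggagCACGTGacctcggcctct
SLC36A1, site next to the start: gggcggtgggatCACGTGatgaggtccgga
These stretches are chr16:87869620-87869649, chr19:46787326-46787355 and chr11:57515797-57515826 (all minus strand), and chr5:151447548-151447577 and chr5:151447583-151447612 (plus strand). The core of the antioxidant response element, TGACNNNGC on either strand, was present in 4 of 18 member windows (SLC1A3, SLC1A5, SLC7A1 and SLC7A5) and in 13.3% of all windows. The 3 motifs do not contain each other. A match describes letters only and does not show that a factor was bound.

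Depth was close to equal, with gene totals from 53129375 to 55537611 reads per library. Every member had at least 720 counts in every library. The epithelial genes KRT8, KRT18, KRT19, EPCAM and CDH1 summed to between 2134 and 2429 CPM (scaled counts, defined below) in a library. Of 7 luminal prostate markers, KLK3 and FOLH1 were at 0 in every library, and KLK2 had at most 1 count.
Markers of other cell types were checked because some moved at 2 h. The 6 blood markers summed to 43.2 to 46.5 CPM in the controls, 45.8 to 53.7 at 2 h and 43.5 to 45.7 at 4 h, nearly all of it the lysosomal gene CD68, while the hemoglobin genes HBA1, HBA2 and HBB were at 0 and PTPRC had at most 5 counts. The monocyte gene CD14 rose at 2 h (log2 1.87, edgeR adjusted p = 0.00135), from 21 and 43 counts in the controls to 145 and 107 at 2 h, with 35 and 55 at 4 h. The 6 fibroblast and endothelial markers summed to 47.0 to 49.1 CPM in the controls, 74.4 to 88.9 at 2 h and 45.7 to 50.8 at 4 h. This sum followed COL1A1 and PECAM1, which rose at 2 h, while COL1A2 had at most 3 counts and VWF at most 7 in a library. The part of these shifts in the results was not tested.

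At 2 h, 5 of the 10 transporters rose and 0 fell: SLC6A9, SLC1A4, SLC43A1, SLC1A5 and SLC7A1. Of all 16209 tested genes, 15.9% were higher and 15.8% lower at 2 h, which makes 31.7% in either direction. Because the list was chosen with earlier results of these data known, setting its count beside these shares is not a test. With libraries scaled by total counts, the share of all 2 h calls that were higher was 62.6%, and 60.5% by the upper quartile, against 50.2% here. The median log2 fold change was 0.31 over the members and 0.017 over all tested genes. At an unadjusted p under 0.05, 6 members were higher and 1, SLC36A1, lower. The share of all tested genes at that looser threshold is not given here, so these counts have no background beside them. At 4 h, 0 of the 10 differed from the controls in either direction by edgeR, 0 had an unadjusted p under 0.05, and DESeq2 also called 0. The background at 4 h was 0.0308% of all genes, with 0.0247% higher and 0.00617% lower. From 2 h to 4 h the same 5 members that had risen fell and 0 rose, against a background of 14.1% lower, 14% higher and 28.1% in either direction. Of all calls in this comparison 49.8% were higher, and 37.4% and 38.7% under the same other scalings. This comparison uses the same 2 h libraries as the rise, so the fall is not separate support for it. In bulk RNA, a change in every cell and a larger change in some cells cannot be told apart.

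Levels are in CPM, the reads of a gene as a share of its TMM-adjusted library size. A log2 fold change is given with its standard error (SE) from the fitted model. Adjusted p-values come from the quasi-likelihood test of edgeR, corrected over all 16209 genes by the Benjamini-Hochberg method, and a gene was called under 0.05, with n = 2 libraries per group.

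**Figure D1:**
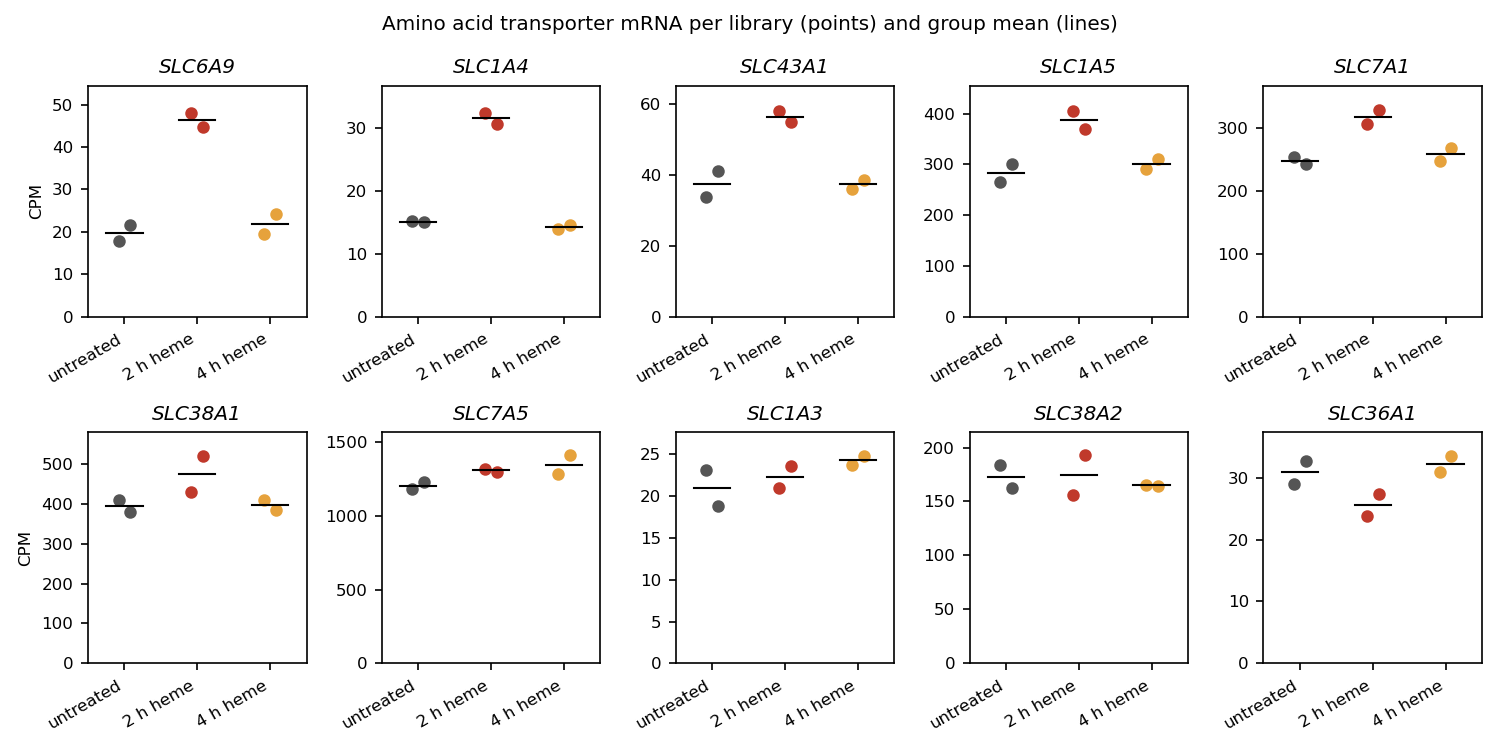
CPM (vertical axes, each from 0) of the 10 transporter genes in the untreated, 2 h and 4 h heme libraries; points are libraries and lines are group means. In the top row, SLC6A9 to SLC7A1, both 2 h points lie above all 4 other points, as they do for SLC38A1 in the bottom row. Panels are ordered by the 2 h change, so this separation is no further support for it. The share of all tested genes with such a separation is not given.

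SLC6A9 (ENSG00000196517.11, chromosome 1, 43991500 to 44031467 on GRCh38 in GENCODE 29, minus strand) encodes GlyT1, which takes up glycine together with sodium and chloride. It stood at 17.9 and 21.7 CPM in the control libraries, 47.9 and 44.8 CPM at 2 h, and 19.5 and 24.3 CPM at 4 h. Both 2 h libraries were above every other library, and the 4 h and control ranges overlapped. The group means were 19.8 ± 2.67, 46.4 ± 2.22 and 21.9 ± 3.39 CPM (SD, n = 2). It rose 2.34-fold at 2 h (log2 1.23, SE 0.14, edgeR adjusted p = 3e-05), which puts its change at the 95th percentile of all tested genes. At 4 h its difference from the controls was log2 0.14 (95% interval -0.15 to 0.44, edgeR adjusted p = 1). Between 2 h and 4 h it fell by 1.08 on the log2 scale (SE 0.14, edgeR adjusted p = 6.74e-05). Exons of CCDC24 on the opposite strand cover 7.83% of its exon length. CCDC24 had 315 and 367 counts in the controls and 526 and 470 at 2 h (log2 0.44, edgeR adjusted p = 0.0478), against 930 and 1172, then 2720 and 2580 for SLC6A9. The strand setting of the counting is not given in the sources used here.

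SLC1A4 (ENSG00000115902.10, chromosome 2, 64988477 to 65023865, plus strand) encodes ASCT1, an exchanger of alanine, serine, cysteine and threonine. It was measured at 15.2 and 15 CPM in the controls, 32.5 and 30.7 CPM at 2 h, and 13.9 and 14.7 CPM at 4 h. The 2 h libraries were again above all others, and both 4 h libraries lay just below both controls. Its means were 15.1 ± 0.106, 31.6 ± 1.25 and 14.3 ± 0.504 CPM (SD, n = 2). The rise at 2 h was 2.09-fold (log2 1.07, SE 0.12, edgeR adjusted p = 3.2e-05), at the 93.4th percentile of all genes. At 4 h its log2 difference was -0.08 (95% interval -0.34 to 0.18, edgeR adjusted p = 1). From 2 h to 4 h it fell by 1.14 on the log2 scale (SE 0.12, edgeR adjusted p = 1.78e-05). SLC6A9 and SLC1A4 were the members that also passed a test for a change beyond 1.5-fold.

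SLC1A5 (ENSG00000105281.12, chromosome 19, 46774883 to 46788594, minus strand) encodes ASCT2, the glutamine exchanger of the same family. Its level was 266 and 301 CPM in the controls, 406 and 369.8 CPM at 2 h, and 291 and 309.8 CPM at 4 h. The 2 h libraries were the highest, and the 4 h and control ranges overlapped. The means were 283 ± 24.6, 388 ± 25.5 and 300.3 ± 13.4 CPM (SD, n = 2). SLC1A5 rose 1.37-fold at 2 h (log2 0.45, SE 0.10, edgeR adjusted p = 0.00308), and from 2 h to 4 h it fell by 0.37 on the log2 scale (SE 0.10, edgeR adjusted p = 0.0113). The 95% interval of its 4 h difference from the controls was -0.12 to 0.29 on the log2 scale. An antisense gene, AC008622.2, overlaps 23.4% of its exon length but had at most 11 counts in a library, against at least 13786 for SLC1A5. Without control replicate 1 the 2 h rise was no longer called (log2 0.36, edgeR adjusted p = 0.0917), and without 4 h replicate 1 the later fall was not (log2 -0.32, edgeR adjusted p = 0.0997).
Per kilobase of exon, the level of SLC1A5 over that of SLC1A4 was 36.5 and 41.7 in the controls, 26.0 and 25.1 at 2 h, and 43.4 and 44.0 at 4 h. This ratio is taken within a library and does not depend on the scaling between libraries. It was lowest in both 2 h libraries, so the paralogs did not change in proportion. An exact permutation test of 2 against 2 libraries cannot give a two-sided p under 0.333, and none was run.

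SLC1A3 (ENSG00000079215.13, chromosome 5, 36606355 to 36688334, plus strand) encodes EAAT1, a sodium-driven glutamate and aspartate importer. It had 23.1 and 18.9 CPM in the controls, 21.0 and 23.6 CPM at 2 h, and 23.8 and 24.8 CPM at 4 h. The 2 h and control ranges overlapped, and the 4 h libraries were slightly above the rest. Neither difference from the controls passed the test, with log2 0.09 at 2 h (95% interval -0.20 to 0.37, edgeR adjusted p = 0.652) and 0.21 at 4 h (95% interval -0.07 to 0.50, edgeR adjusted p = 1). A change as large as that of SLC1A4 at 2 h is outside the first interval.

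Leucine and other large neutral amino acids enter through SLC7A5 (LAT1), which works as a pair with the glycoprotein SLC3A2, and through the uniporter SLC43A1 (LAT3). SLC7A5 (ENSG00000103257.8, chromosome 16, 87830023 to 87869488, minus strand) was the most abundant member, with 1183 and 1229 CPM in the controls, 1319.7 and 1299.9 CPM at 2 h, and 1285 and 1413 CPM at 4 h. All 4 heme libraries were above both controls. The differences did not pass the test at 2 h (log2 0.12, SE 0.09, 95% interval -0.07 to 0.30, edgeR adjusted p = 0.316) or at 4 h (log2 0.16, SE 0.09, 95% interval -0.02 to 0.35, edgeR adjusted p = 1). SLC3A2 (ENSG00000168003.16, chromosome 11, 62856102 to 62888875) had 370.3 and 422 CPM in the controls, 368 and 351 CPM at 2 h, and 398 and 427 CPM at 4 h. It was not called at either time (log2 -0.14, edgeR adjusted p = 0.283 at 2 h; log2 0.06, edgeR adjusted p = 1 at 4 h). Per kilobase of exon, SLC7A5 over SLC3A2 was 3.49 and 3.18 in the controls, 3.91 and 4.04 at 2 h, and 3.52 and 3.61 at 4 h. The 2 h libraries had the highest ratios.

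SLC43A1 (ENSG00000149150.8, chromosome 11, 57484534 to 57515786, minus strand) was far scarcer, at 33.7 and 41.1 CPM in the controls, 57.9 and 54.7 CPM at 2 h, and 35.9 and 38.6 CPM at 4 h. The 2 h libraries stood above the rest, and the 4 h libraries lay between the controls. It rose 1.5-fold at 2 h (log2 0.59, SE 0.12, edgeR adjusted p = 0.00218), from 37.4 ± 5.18 to 56.3 ± 2.22 CPM (SD, n = 2). Between 2 h and 4 h it fell by 0.60 on the log2 scale (SE 0.12, edgeR adjusted p = 0.00212), to 37.3 ± 1.86 CPM (SD, n = 2). Without control replicate 1, the lower of the controls, the 2 h rise was not called (log2 0.45, edgeR adjusted p = 0.0795).

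SLC7A1 (ENSG00000139514.12, chromosome 13, 29509410 to 29595688, minus strand) encodes CAT1, the main carrier of arginine and lysine in many cell types. It had 253 and 242 CPM in the controls, 306 and 329 CPM at 2 h, and 247 and 269 CPM at 4 h. The 2 h libraries were the highest and the other groups overlapped. It rose 1.28-fold at 2 h (log2 0.36, SE 0.09, edgeR adjusted p = 0.00982), the smallest of the 5 called rises, and from 2 h to 4 h it fell by 0.30 on the log2 scale (SE 0.09, edgeR adjusted p = 0.0264). Its 2 h call was lost without control replicate 1 (log2 0.38, edgeR adjusted p = 0.0755) and without control replicate 2 (log2 0.30, edgeR adjusted p = 0.153). The fall after 2 h was lost without control replicate 1 (log2 -0.29, edgeR adjusted p = 0.0687), control replicate 2 (log2 -0.28, edgeR adjusted p = 0.0891), 2 h replicate 2 (log2 -0.22, edgeR adjusted p = 0.102) and 4 h replicate 1 (log2 -0.24, edgeR adjusted p = 0.175). It was also lost without the low-count filter (log2 -0.26, edgeR adjusted p = 0.0612) and with only the compared groups in the fit (log2 -0.28, edgeR adjusted p = 0.0806).

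SLC38A1 (SNAT1) and SLC38A2 (SNAT2), neighbors on chromosome 12, are sodium-coupled importers of glutamine, alanine and other small neutral amino acids. SLC38A1 (ENSG00000111371.15, 46183063 to 46270017, minus strand) had 411 and 379 CPM in the controls, 431 and 519.9 CPM at 2 h, and 409 and 384 CPM at 4 h. Both 2 h libraries were above the others, but they were far apart from each other. Its 2 h difference of log2 0.27 (SE 0.10, 95% interval 0.05 to 0.49) missed the threshold (edgeR adjusted p = 0.0585). It passed when libraries were scaled by total counts (log2 0.34, edgeR adjusted p = 0.02) or by the upper quartile (log2 0.33, edgeR adjusted p = 0.0245), and without 2 h replicate 1 (log2 0.39, edgeR adjusted p = 0.00692). These 3 settings also called its fall from 2 h to 4 h, which was log2 -0.26 (edgeR adjusted p = 0.0703) otherwise.
SLC38A2 (ENSG00000134294.13, 46358189 to 46372867, minus strand), known to respond to amino acid starvation, had 183 and 163 CPM in the controls, 156 and 193 CPM at 2 h, and 166 and 164 CPM at 4 h. The 2 h libraries lay on either side of both controls. Its differences from the controls were log2 0.01 at 2 h (95% interval -0.23 to 0.25, edgeR adjusted p = 0.956) and -0.07 at 4 h (95% interval -0.31 to 0.17, edgeR adjusted p = 1). Per kilobase, SLC38A1 over SLC38A2 was 1.48 and 1.54 in the controls, 1.82 and 1.78 at 2 h and 1.63 and 1.55 at 4 h. The ratio differed little between the 2 h libraries although both genes were higher in replicate 2 than in replicate 1.

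SLC36A1 (ENSG00000123643.12, chromosome 5, 151437046 to 151492381, plus strand) encodes PAT1, a proton-driven carrier of small amino acids that also sits on lysosomes. It was the member with the lowest 2 h change, at 29 and 32.8 CPM in the controls, 23.8 and 27.3 CPM at 2 h, and 31.0 and 33.4 CPM at 4 h. Both 2 h libraries were below all others. The 2 h difference of log2 -0.27 (SE 0.12, 95% interval -0.54 to -0.01) did not pass (edgeR adjusted p = 0.108), nor did the difference of 0.33 from 2 h to 4 h (SE 0.12, edgeR adjusted p = 0.0577). DESeq2 did call the latter (log2 0.37, DESeq2 adjusted p = 0.0227), as did edgeR with DESeq2 size factors (log2 0.36, edgeR adjusted p = 0.0437) and without the low-count filter (log2 0.37, edgeR adjusted p = 0.0382). Without 2 h replicate 2, both the 2 h difference (log2 -0.40, edgeR adjusted p = 0.0214) and the later one (log2 0.46, edgeR adjusted p = 0.00942) were called.

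**Figure D2:**
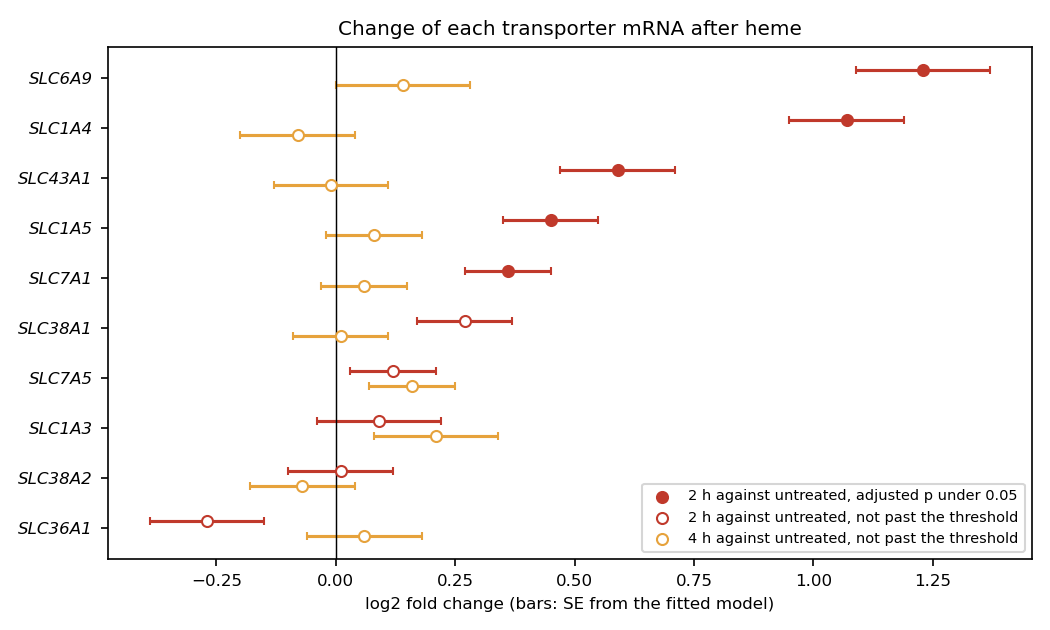
Log2 fold change against the untreated libraries (horizontal axis) at 2 h (red) and 4 h (orange) for each transporter, with SE from the fitted model; filled points passed an adjusted p of 0.05. At 2 h the values run from -0.27 for SLC36A1 to 1.23 for SLC6A9 and 5 are filled, while at 4 h they lie between -0.08 and 0.21 and none is filled.

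Compared per length, the members spanned a wide range of levels. In the controls the order by CPM per kilobase of exon was SLC7A5 (254), SLC1A5 (85.0), SLC38A1 (39.4), SLC7A1 (32.2), SLC38A2 (26.2), SLC43A1 (10.6), SLC36A1 (4.42), SLC6A9 (3.84), SLC1A3 (3.35) and SLC1A4 (2.18). Library ranges of neighbors in this order overlapped for SLC36A1 with SLC6A9 and for SLC6A9 with SLC1A3, and for no other adjacent pair. At 2 h SLC6A9 stood 7th with 8.99 and SLC1A4 8th with 4.55, both above SLC36A1 (3.66) and SLC1A3 (3.56), whose ranges overlapped. The first 6 places were the same at 2 h, and at 4 h all 10 places were as in the controls, with the same 2 pairs of neighbors overlapping. Exon lengths are those of all annotated transcripts joined, so a gene whose cells use a short form is understated.

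**Figure D3:**
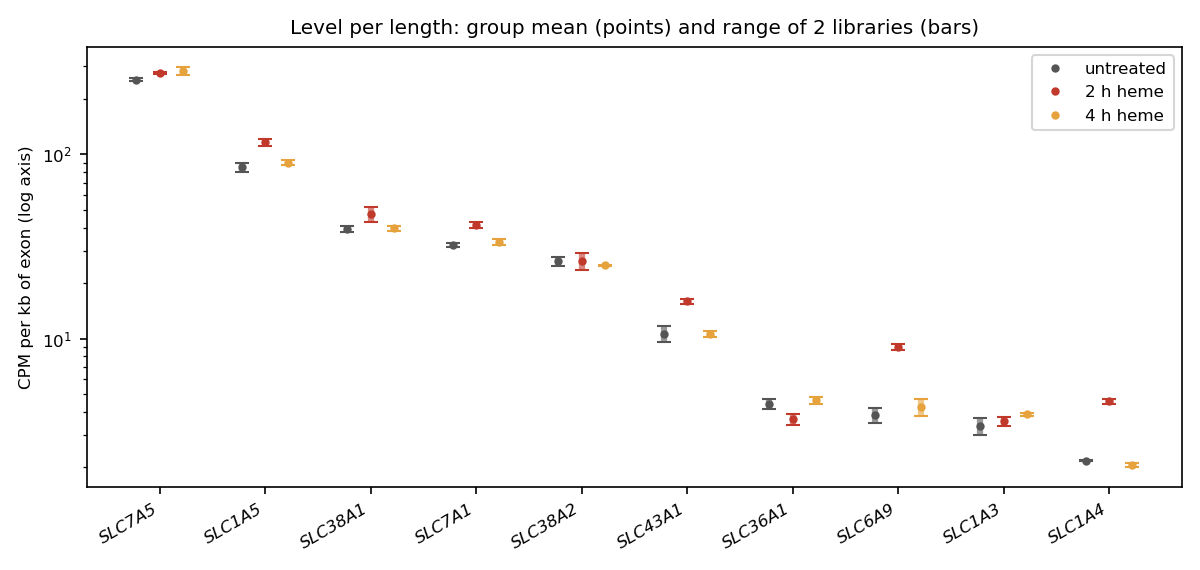
Level per length (CPM per kilobase of exon, log axis) of the 10 transporters in the 3 groups; points are group means and bars span the 2 libraries. SLC7A5 is highest in every group (254 to 284), and SLC6A9 and SLC1A4 move up past SLC36A1 and SLC1A3 at 2 h only.

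Summed over the 10 members, the libraries held 2415 and 2443 CPM untreated, 2801 and 2892 CPM at 2 h, and 2522 and 2675 CPM at 4 h. The sums of the groups did not overlap, but no background from other genes is given for this, and it is not a test. The mean sum at 2 h was 17.2% above that of the controls, a difference of 417 CPM. SLC1A5 contributed 105 CPM of this difference, SLC7A5 104, SLC38A1 80.6 and SLC7A1 69.4, while SLC6A9 added 26.6, SLC43A1 18.9 and SLC1A4 16.5. SLC7A5 and SLC38A1 did not pass the test themselves. At 4 h the mean sum was 6.98% above that of the controls, although no member was called. SLC7A5 alone was 143 CPM higher then. SLC7A5 made up 49.0% and 50.3% of the sum in the controls, 47.1% and 44.9% at 2 h, and 51.0% and 52.8% at 4 h.

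Read against the letters, 3 of the 5 members with a CARE core in a window rose at 2 h (SLC1A4, SLC1A5, SLC7A1), and 2 of the 5 without one (SLC6A9, SLC43A1). With an E-box, 2 of 4 rose (SLC1A5, SLC43A1), and without one 3 of 6. With the antioxidant element core, 2 of 4 rose (SLC1A5, SLC7A1), and without it 3 of 6. Of all tested genes 15.9% were higher at 2 h, and nothing is read from these small counts.

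The tested genes closest to SLC6A9 in their 6 library values of log2 CPM, each centered on its control mean, were CEACAM19, SAMD12, FZD7, ERBB2 and ABTB1. Their root mean square distance from SLC6A9 was 0.0643 to 0.0848, among 11930 other genes with a mean of at least 2 CPM. Their 2 h changes ran from log2 1.15 for FZD7 to 1.27 for CEACAM19 and their 4 h changes from 0.11 to 0.21. For SLC36A1, the lowest member, they were ZNF500, FAM89A, LYSMD4, SNHG4 and BEX1, at distances of 0.0214 to 0.0403, with 2 h changes from -0.30 to -0.25 (log2). These genes were picked for their likeness, so it carries no test.

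Other transporters of the plasma membrane were taken from a list of 34. Of these, 6 were at 0 counts in every library and 16 were tested. At 2 h 5 rose and 1 fell, 37.5% called, with a median log2 of 0.25, where 31.7% of all tested genes were called and their median was 0.017. SLC7A11, the cystine importer that pairs with SLC3A2, had 65.4 and 66.6 CPM in the controls, 121 and 174 CPM at 2 h, and 73.4 and 73.3 CPM at 4 h (log2 1.16, SE 0.14, edgeR adjusted p = 4.1e-05 at 2 h). SLC7A8 (LAT2), another SLC3A2 partner, had 7.73 and 8.28 CPM in the controls, 16.4 and 14.7 CPM at 2 h and 9.36 and 9.44 CPM at 4 h (log2 0.96, SE 0.14, edgeR adjusted p = 2.21e-04 at 2 h). The taurine carrier SLC6A6 rose less (log2 0.32, SE 0.11, edgeR adjusted p = 0.0319). Its level was 50.8 and 52.0 CPM in the controls, 64.9 and 63.7 CPM at 2 h and 58.1 and 66.6 CPM at 4 h, and its 4 h difference was not called (log2 0.28, edgeR adjusted p = 1).
The remaining rises were in scarce transcripts. The glutamate transporter SLC1A7 (EAAT5) had 2 and 11 counts in the controls, 96 and 59 at 2 h, and 13 and 30 at 4 h (log2 3.45, 95% interval 2.21 to 4.69, edgeR adjusted p = 5.85e-04 at 2 h). SLC7A9, a light chain of cystine and basic amino acid transport, had 3 and 5 counts in the controls, 23 and 19 at 2 h, and 3 in both 4 h libraries (log2 2.25, 95% interval 0.91 to 3.59, edgeR adjusted p = 0.0143 at 2 h). SLC7A9 passed the low-count filter only through the 2 h libraries where it is high, so its call is no support for a rise of the list. Without it, 4 of 15 rose and 1 fell, with a median log2 of 0.23. SLC7A2 (CAT2), another arginine carrier of the same family, fell at 2 h (log2 -0.67, SE 0.15, edgeR adjusted p = 0.00404). It had 27.2 and 27.1 CPM in the controls, 14.1 and 20.1 CPM at 2 h, and 33.5 and 35.3 CPM at 4 h. SLC7A1 and SLC7A2 were thus called in opposite directions at 2 h.
At 4 h 0 of the 16 were called by edgeR or by DESeq2. At an unadjusted p under 0.05, for which no share over all genes is given, 3 were higher. From 2 h to 4 h 2 rose, SLC7A2 and SLC7A6, and 4 fell, 37.5% called against 28.1% of all tested genes. SLC7A9, tested only through the 2 h libraries, is among those that fell.

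Among carriers of mitochondria, lysosomes and vesicles, of 16 tested at 2 h (21 listed, 3 of them at 0 counts), 1 rose and 4 fell, with a median log2 of -0.10. The share called, 31.2%, was near the 31.7% of all tested genes. Fewer were called without control replicate 1 and without 2 h replicate 1, as was so over all tested genes. SLC25A38, which carries glycine into mitochondria, had 75.5 and 77.3 CPM in the controls, 38.1 and 37.0 CPM at 2 h, and 77.1 and 79.8 CPM at 4 h (log2 -1.03, SE 0.10, edgeR adjusted p = 9.44e-06 at 2 h). The mitochondrial serine carrier SFXN1 (log2 -0.47, SE 0.12, edgeR adjusted p = 0.00922), the ornithine carrier SLC25A15 (log2 -0.48, SE 0.13, edgeR adjusted p = 0.0109) and the glutamate carrier SLC25A22 (log2 -0.36, SE 0.11, edgeR adjusted p = 0.0268) fell too. SLC25A29, a carrier of basic amino acids, rose (log2 0.54, SE 0.17, edgeR adjusted p = 0.026). For glycine, the plasma membrane carrier SLC6A9 and the mitochondrial carrier SLC25A38 were thus called in opposite directions at 2 h. At 4 h 0 of 16 were called by edgeR or by DESeq2, and 0 had an unadjusted p under 0.05.

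Of 31 tested genes that make amino acids or sense their supply, 10 rose and 1 fell at 2 h, 35.5% called against 31.7% of all tested genes, with a median log2 of 0.21. Fewer of them were called when either control library was left out, as was so over all tested genes. CEBPB, a partner of ATF4 at CARE sites, had 71.7 and 80.3 CPM in the controls, 238 and 192 CPM at 2 h, and 81.3 and 125 CPM at 4 h (log2 1.5, SE 0.16, edgeR adjusted p = 2.17e-05 at 2 h). The alanine transaminase GPT2 (log2 0.54, SE 0.10), CTH, which makes cysteine (log2 0.59, SE 0.12), PSPH of serine synthesis (log2 0.56, SE 0.13) and SHMT2, which turns serine into glycine in mitochondria (log2 0.32, SE 0.10), also rose, with edgeR adjusted p-values from 8.43e-04 to 0.0212. ATF4 itself had 279 and 282 CPM in the controls, 300.1 and 291 CPM at 2 h, and 278 and 274 CPM at 4 h, and did not pass (log2 0.07, edgeR adjusted p = 0.555). Its activity is set largely by translation, which RNA counts do not measure. The asparagine synthetase gene ASNS did not pass either (log2 0.21, 95% interval -0.01 to 0.43, edgeR adjusted p = 0.131). At 4 h 0 of 31 were called by edgeR or by DESeq2. At an unadjusted p under 0.05, for which no share over all genes is given, 1 was higher.

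**Figure D4:**
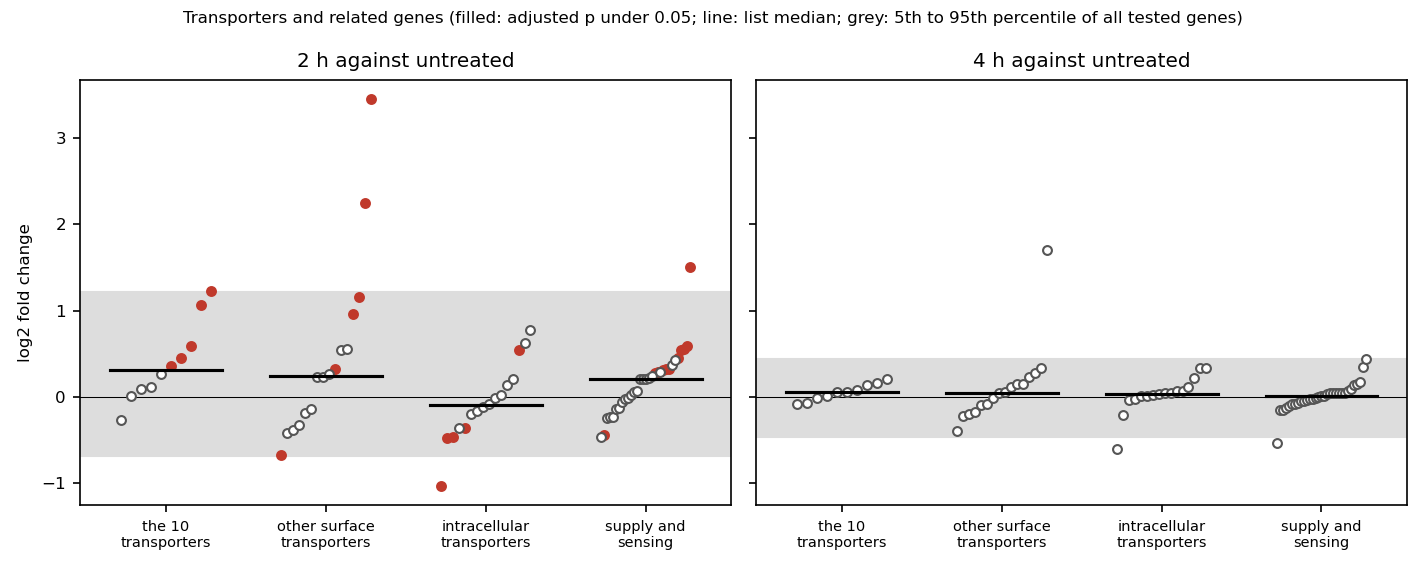
Log2 fold change (vertical axis) at 2 h and 4 h against untreated for the 10 transporters, 16 other surface transporters, 16 intracellular transporters and 31 supply and sensing genes that were tested; filled points have an adjusted p under 0.05, lines are list medians and grey marks the 5th to 95th percentile of all tested genes. At 2 h the medians are 0.31, 0.25, -0.10 and 0.21, and at 4 h no point is filled.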

How the data were processed

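RNA of 6 PC3 libraries was sequenced. Each library came with 1 table of gene symbols and whole-number counts of reads, deposited by the authors without normalization, closing with the summary lines that HTSeq writes. The submitters' processing notes name the build hg38 and the tools STAR, Trimmomatic, deepTools and SAMtools. Versions, annotation and strand setting: not given in the sources used here. Summary lines (9.96% to 11.1% of a library) stayed out of library sizes.

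All 6 libraries entered 1 edgeR fit (edgeR 4.0.16, R 4.3.3) with TMM scaling, filterByExpr at a minimum count of 10 and two-sided quasi-likelihood tests, which left 3 residual degrees of freedom. The test was tried on simulated data first, for 2 h against control. It called 73.1% of 1.5-fold changes, 98.5% of 2-fold and 100% of 4-fold changes. Of 15462 unchanged genes it called 10. Changes under 1.5-fold were not simulated. Libraries of a group were not duplicates of each other (chi-square of 8.78 to 33.9 per gene, where sampling alone gives about 1).

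Gene models came from GENCODE 29, where 33164 of 33514 symbols matched 1 gene, and promoters from RefSeq. The members and lists were chosen with earlier results of these data known. All members, SLC3A2, and up to 6 called genes per other list (smallest 2 h p) were named. For the most like genes, the member with the smallest 2 h p in each direction was used. SLC7A6, ATF4, ASNS, CCDC24 and the marker genes singled out were named after their values were seen. PQLC2 is SLC66A1, counted once, and the symbol SAMTOR was not matched. A few listed genes are not reported here by name. Alternatives were DESeq2 1.42.0, 3 other scalings, no filter, a replicate block, only the compared groups, a test beyond 1.5-fold (glmTreat), and leaving out each library.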

Additional observations from a re-analysis of the deposited data

Results flagged for a closer look

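The effects of heme at 2 h and at 4 h differed for 5 of the 10 transporters, by the direct test of 4 h against 2 h. The log2 differences were -1.14 for SLC1A4, -1.08 for SLC6A9, -0.60 for SLC43A1, -0.37 for SLC1A5 and -0.30 for SLC7A1, with edgeR adjusted p-values of 1.78e-05, 6.74e-05, 0.00212, 0.0113 and 0.0264. In each of the 5 genes both 4 h libraries were below both 2 h libraries. These genes were picked by the same comparison, so the separation is no further support for it. Across all tested genes 28.1% passed this comparison.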

How the results depend on the processing

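The rises of SLC6A9 and SLC1A4 at 2 h, and their falls from 2 h to 4 h, were called in all 14 alternatives. With 2 libraries a group, whether the smaller changes were called depended on single libraries. Leaving out each library in turn gave 2 to 6 members higher and 0 to 1 lower at 2 h, and 0 to 1 higher and 3 to 6 lower from 2 h to 4 h. Over all genes it gave 2321 to 6254 calls at 2 h (5136 with all libraries), 4 to 16 at 4 h (5) and 2199 to 5819 from 2 h to 4 h (4558). Intracellular transporters called at 2 h numbered 2 to 7, and supply and sensing genes 3 to 13 at 2 h and 4 to 10 from 2 h to 4 h. A lone library was then assumed to vary like the other groups.

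Genes called at 4 h numbered 10 without the filter, 14 with DESeq2, 13 with only the compared groups (then also 7 supply and sensing genes from 2 h to 4 h) and 3 beyond 1.5-fold. The test beyond 1.5-fold called 533 genes at 2 h and 543 from 2 h to 4 h, among them 2 members (higher, then lower), 2 other surface transporters, 1 intracellular transporter and 1 supply and sensing gene in each. From 2 h to 4 h 1 member was called higher with DESeq2 size factors, without the filter and with DESeq2.

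Directions turned only in member differences that were not called. With every library kept, SLC43A1 at 4 h became 0.01 (log2) with DESeq2 size factors, no filter or DESeq2, SLC7A5 from 2 h to 4 h became -0.02 with total counts or the upper quartile, and SLC38A2 at 2 h became -0.02 without the filter and -0.01 with DESeq2. Leaving out each library in turn gave, at 2 h, -0.17 to 0.15 for SLC38A2 and -0.07 to 0.24 for SLC1A3. At 4 h it gave -0.14 to 0.14 for SLC43A1, -0.15 to 0.02 for SLC38A2, -0.05 to 0.07 for SLC38A1, -0.02 to 0.15 for SLC36A1 and -0.02 to 0.29 for SLC6A9. From 2 h to 4 h it gave -0.22 to 0.11 for SLC38A2. The causes were not tested.

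With the replicate number as a block, 5 members were higher at 2 h and 5 lower from 2 h to 4 h, as without it, and genes called numbered 4809, 6 and 4205. Same-numbered libraries did not deviate together (correlations -0.0908 to 0.065), so the numbers were not taken as a pairing.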
